A study of Mus musculus with 25 samples.

Results

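Motile cilia genes were taken as 39 symbols of ciliated cells: 3 transcription factors, the parts of the ciliary axoneme with the factors that assemble and carry them, and 10 other genes of ciliated cells. Members were found by the probe sets annotated to one of these symbols alone, and where a gene had several, the one of highest mean was used. Of the 39 genes, 38 had such a probe set, among 18193 genes on the array. Lrriq1 had none of its own and is named only. The test took genes that exceeded the array's median on 4 or more of the 25 arrays, which kept 35 members among 12062 genes. The 3 members below that limit were Rfx2, above the median on 3 arrays, and Spag17 and Ccdc146, each above it on 0 arrays.

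The motile cilium is a bundle of microtubule doublets around a central pair, and it beats when dynein arms on one doublet pull on the next. Radial spokes, the central pair and the nexin-dynein links between doublets regulate that beat, and intraflagellar transport carries the parts to the growing tip. In the lung such cilia stand on the multiciliated cells of the airways, where they move mucus outwards, and Foxj1 with RFX factors switches on the genes that build them.

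RNA from the lungs of 25 female mice, 1 mouse to an Affymetrix mouse 430 2.0 array, was measured. The array reads a transcript as the intensity of a probe set, a group of short probes for it. WT mice, 13 in all, carried the prostaglandin F2α receptor FP, and the 12 FP-KO mice lacked it. Bleomycin, which damages lung tissue and sets off fibrosis, was instilled into the trachea on Day 0, at 1 mg/kg in 40 ul of saline. WT lungs were taken on Day 0 (n = 4), which the labels call baseline, on Day 7 (n = 4) and on Day 14 (n = 5), and FP-KO lungs on Day 0, Day 7 and Day 14 (n = 4 on each). Whether Day 0 lungs were taken before the instillation, the strain, the age and how the knockout was made are not given in the sources used here. Nor do the labels tie mouse numbers to litters, cages or batches. The series sets the time course of FP-KO lungs beside that of WT lungs.

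Changes below are log2 differences between group means after quantile normalization, and the value after ± is the limma standard error. A gene passed, and rose or fell, where its Benjamini-Hochberg adjusted p over all 12062 genes was under 0.05. Intensities per mouse are as deposited, in array units and in the order of the mouse numbers. They are compared only within a gene, save for sums over a gene list, in which the brightest probe sets weigh most. RNA came from whole lung, so fewer ciliated cells and less RNA per ciliated cell cannot be told apart.

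Some arrays stood apart. Ptgfr, which encodes FP, read 122.6 to 383.7 in WT lungs and 21.1 to 57.6 in FP-KO lungs. This matched every genotype label, but Ptgfr cannot check the day labels. FP-KO Day 14 No. 2 lay at -28.9 on the first principal component, among the Day 0 arrays of both genotypes (-35.0 to -24.8), while the other FP-KO Day 14 arrays lay at -5.37 to 1.44. It also had the highest reading of the array's 18S control, 2393. Whether bleomycin had injured that lung was not tested. On the second component the Day 14 arrays fell into a set of WT No. 1 to 3 with FP-KO No. 1 and 2 (-30.1 to -27.7) and a set of the other 4 (-1.35 to 2.28). Counts of members on Day 14 are therefore also given without FP-KO No. 2 and within each set, which the labels do not name as batches. The 3′ to 5′ ratio of the Actb control probe sets, a sign of RNA quality, also moved with the groups. It was 1.34 to 1.62 in WT Day 0, 1.23 to 1.32 in WT Day 7 and 1.21 to 1.40 in WT Day 14 mice. In FP-KO mice it was 1.32 to 1.55 on Day 0, 1.18 to 1.35 on Day 7 and 1.38 to 1.56 on Day 14.

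In WT lungs 18 of 35 members fell by Day 7 and 19 by Day 14. On Day 7, 18 had fallen and 0 had risen, with a median change of -0.32, and the falls ranged from Dnah8 (-1.39 ± 0.19) and Tppp3 (-1.23 ± 0.16) to Ift81 (-0.26 ± 0.094). Over all genes tested, 18.0% fell in that comparison and the median change was -0.013. On Day 14, 19 members had fallen and 0 had risen, with a median of -0.40 and 34 of 35 below 0, against 19.5% of all genes falling and a median of -0.011. Both comparisons use the same 4 Day 0 mice. The Actb ratio was lower in all WT Day 7 mice than in all WT Day 0 mice, and in 4 of the 5 WT Day 14 mice, and its part in these falls was not tested.

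The WT falls on Day 14 were counted in both sets of arrays. With WT No. 1 to 3 as Day 14, 16 members fell and 0 rose (median -0.40), against 22.6% of all genes falling. With WT No. 4 and 5 the counts were 17 and 0 (median -0.53), against 9.73%. Of the 19 falls, all kept their sign in both sets. Ccdc113, Ccdc39, Dnah8 and Tekt4 did not pass in the first set, and Ccdc39, Dnah8, Enkur, Ift122, Ift57 and Mlf1 did not in the other. The values that moved by more than 1.5 times were those of Ift122 (-0.075 in the other set), Tekt4 (-0.25 in the first and -0.72 in the other) and Ccdc113 (-0.33 and -0.84).

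Between Day 7 and Day 14 in WT lungs 1 member rose, Dnah8 (0.86 ± 0.18), where 3.56% of all genes rose, and the members' median change was -0.070. Without WT Day 0 No. 1, the mouse with the highest members' median, 9 members fell on Day 7, against 14.9% of all genes. Between Day 7 and Day 14, 2 members rose without WT Day 7 No. 3 (2.99% of all genes rose) or WT Day 14 No. 5 (6.73%). Without WT Day 14 No. 4, 2 rose and 1 fell, against 5.41% of all genes rising and 4.31% falling. With the first set as Day 14, 2 rose and 3 fell (12.5% and 12.1% of all genes), and with the other set 0 passed by limma (0.124%).

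In FP-KO lungs, on Day 7, 7 of 35 members had fallen and 0 had risen, with a median change of -0.14, while 10.7% of all genes fell with a median of 0.0024. These were Tppp3 (-0.89 ± 0.16), Dnah11 (-0.69 ± 0.23), Hydin (-0.52 ± 0.16), Ccdc40 (-0.46 ± 0.16), Dnah6 (-0.45 ± 0.14), Ak7 (-0.33 ± 0.094) and Dynlrb2 (-0.29 ± 0.094). On Day 14 against Day 0, limma passed 0 members, where 3.26% of all genes passed, and the median change was 0.085. At an unadjusted p under 0.05, 4 members passed there, among 19.2% of all genes, and 1 member passed the adjusted test without FP-KO Day 14 No. 2 or No. 3, FP-KO Day 7 No. 4, or WT Day 14 No. 2 or No. 4, with 2.51% to 4.72% of all genes passing in those fits. The sets of arrays gave 2 (14.5% of all genes) and 1 (2.21%). From Day 7 to Day 14, 6 members rose and 0 fell, with a median of 0.27, against 10.7% of all genes rising. The FP-KO counts were small and moved with single mice. Without FP-KO Day 7 No. 2, 1 member fell on Day 7, where 7.30% of all genes fell. Without FP-KO Day 7 No. 1 or FP-KO Day 0 No. 3, 3 fell (6.64% and 8.72% of all genes), and without FP-KO Day 0 No. 1 or FP-KO Day 7 No. 3, 4 fell (7.58% and 9.36%). From Day 7 to Day 14, 1 rose without FP-KO Day 14 No. 2, where 4.00% of all genes rose. Without FP-KO Day 7 No. 1 or No. 2, 2 rose (5.75% and 5.86%). With FP-KO No. 1 and 2 as Day 14, 8 rose and 1 fell (17.2% and 18.5% of all genes), and with No. 3 and 4, 0 passed by limma (2.35%). In several of these fits the members' share lay near or below that of all genes, so the FP-KO counts are no result about the members.

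On Day 14 the cilia genes read higher in FP-KO than in WT lungs. There 18 of 35 members were higher in FP-KO lungs and 0 lower, and 34 of 35 differences lay above 0, with a median of 0.46. Of all genes tested 4.89% were higher and 5.64% lower, and their median difference was -0.0022. In 16 members every FP-KO mouse lay above every WT mouse on the normalized scale, which held for 5.26% of all genes. Without FP-KO Day 14 No. 2, 8 members passed, 7 of them among the 18, with a median of 0.40, against 1.59% of all genes higher. Those 7 were Dnah6, Rsph4a, Tekt1, Tekt4, Ift81, Dynlrb2 and Ak7, and the 18 differences were all above 0 without that mouse, at 0.28 to 0.65. In the set of WT No. 1 to 3 and FP-KO No. 1 and 2, 8 members passed, all higher (median 0.45), against 4.34% of all genes. In the set of the other 4 mice 0 passed at adjusted p under 0.05, with a median of 0.53, and limma passed 0.0166% of all genes there. The differences of the 18 members lay above 0 in both sets, at 0.36 to 0.67 in the first and 0.24 to 0.97 in the other. The 8 that passed in the first were Ak7, Dynlrb2, Traf3ip1, Ift81, Tekt4, Rsph4a, Dnah6 and Tekt1. The Actb ratio of FP-KO Day 14 mice lay above that of 4 of the 5 WT Day 14 mice, and its part in the difference was not tested.

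**Figure D1:**
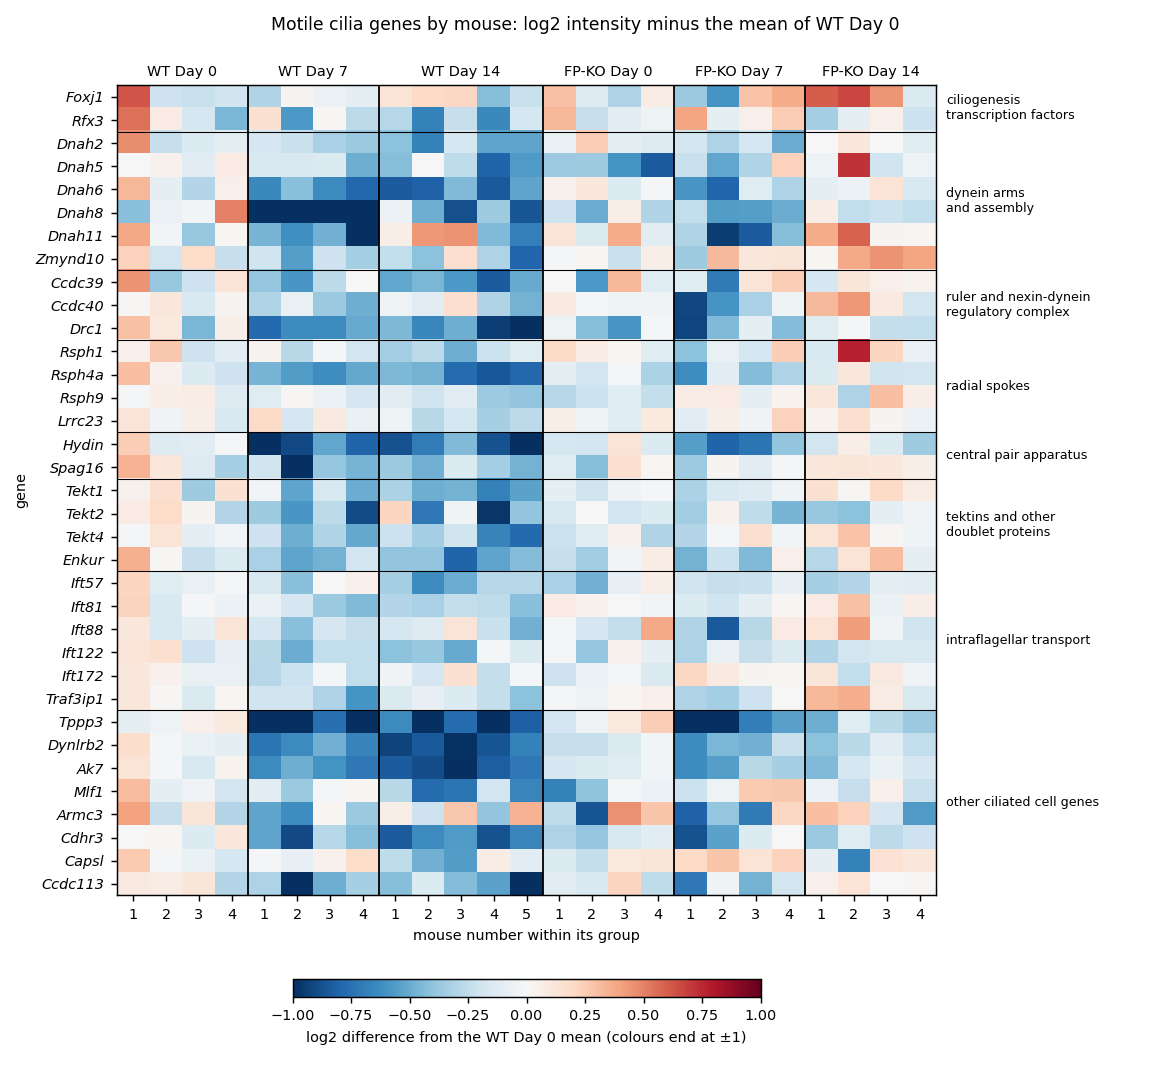
Each row is 1 of the 35 tested motile cilia genes, grouped by role, and each column is 1 mouse, grouped by genotype and day. Colour gives log2 intensity minus the WT Day 0 mean of that gene, on a scale that ends at ±1. Most rows are blue in the WT Day 7 and WT Day 14 columns, paler in FP-KO Day 7 and near white in FP-KO Day 14.

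Taken per mouse, the median of the 35 members lay at -0.50 to -0.28 from the WT Day 0 mean in WT Day 7 mice and at -0.50 to -0.32 in WT Day 14 mice. It lay at -0.32 to -0.023 in FP-KO Day 7 mice and at -0.12 to 0.11 in FP-KO Day 14 mice. WT Day 14 and FP-KO Day 14 mice did not overlap. Day 0 mice ran from -0.12 to 0.18 in WT and from -0.18 to -0.027 in FP-KO lungs, overlapping each other.

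Of the transcription factors, Foxj1 is the switch of motile ciliogenesis, and Rfx2 and Rfx3 bind X-box sites before cilia genes. Foxj1 passed in 0 of the 12 contrasts. It read 957, 504, 547 and 553 in WT Day 0 mice, 492, 615, 595 and 582 in WT Day 7 mice and 714, 738, 741, 463 and 522 in WT Day 14 mice. FP-KO mice read 752, 572, 501 and 659.5 on Day 0, 473, 365, 739 and 792 on Day 7 and 967, 1005, 838 and 564 on Day 14. WT Day 0 No. 1 stood far above its 3 group mates, and the groups of both genotypes overlapped on every day. On Day 14 WT No. 1 to 3 lay above WT No. 4 and 5, and FP-KO No. 1 and 2 above FP-KO No. 3 and 4, along the sets of arrays. The change in WT lungs was -0.021 ± 0.21 on Day 14 (95% interval -0.46 to 0.42), and the FP-KO minus WT difference on Day 14 was 0.42 ± 0.21 (-0.026 to 0.86, limma adjusted p = 0.227). The interval of the WT change reached past -0.40, the median over the members on that day. Rfx3 also passed in 0 contrasts. It read 358 to 679 in WT Day 0 mice, 297 to 417 in WT Day 14 mice and 383 to 480.3 in FP-KO Day 14 mice, and its WT Day 14 change was -0.40 ± 0.18 (adjusted p = 0.0761). Rfx2 was too dim to test, at 60.2 to 196 in WT Day 0 mice and 42.0 to 86.8 in WT Day 14 mice, and a second probe set of it gave the opposite sign.

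RFX factors bind the core GTTGCC, and promoters of the members are shown because 18 members were higher together in FP-KO lungs on Day 14. RefSeq promoters (GRCm38.p6) run from 250 bases before to 50 after a gene's start, and 32 of the 39 members had 35 such windows. GTTGCC, read on either strand (GGCAAC on the other), lay in 21 of the 35 windows, or 60.0%, from 20 members, against 12.5% of all 32851 promoters. The whole X-box, searched as GTTNCC and GGNAAC with 0 to 3 bases between them, overlaps that core. It lay in 1 member window, that of Ift57 (2.86%), against 0.804% of all promoters. The forkhead core TGTTTAC, searched on both strands, lay in 2 windows, those of Ak7 and Mlf1 (5.71%), against 3.65% of all. The following are stretches that hold the core upstream of the start, from members that were higher in FP-KO lungs on Day 14. That of Ift57 is added for its match to the strict X-box pattern. All run 5′ to 3′ on the gene's strand with the core in capitals. A match is a description of these letters and not a bound site.
Dynlrb2 (chr8:116504939-116504994, plus strand): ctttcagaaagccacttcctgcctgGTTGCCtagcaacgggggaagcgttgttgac
Hydin (chr8:110266939-110266976, plus strand): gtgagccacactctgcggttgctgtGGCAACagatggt
Drc1 (chr5:30281357-30281392, plus strand): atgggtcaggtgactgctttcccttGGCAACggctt
Enkur (chr2:21205369-21205424, minus strand): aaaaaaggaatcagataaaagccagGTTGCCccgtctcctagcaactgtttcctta
Tekt1 (chr11:72361883-72361922, minus strand): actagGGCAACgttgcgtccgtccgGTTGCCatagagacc
Cdhr3 (chr12:33092876-33092906, minus strand): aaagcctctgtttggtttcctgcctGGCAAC
Ccdc113 (chr8:95534069-95534099, plus strand): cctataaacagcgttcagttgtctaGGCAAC
Traf3ip1 (chr1:91494564-91494619, plus strand): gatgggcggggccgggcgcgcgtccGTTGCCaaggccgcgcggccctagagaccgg
Ift57 (chr16:49699209-49699264, plus strand): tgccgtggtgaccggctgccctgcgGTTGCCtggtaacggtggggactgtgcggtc

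In these stretches the core ended 0 bases before the start in Ccdc113 and Cdhr3, 5 bases before it in Drc1, 7 in Hydin and 45 in Dynlrb2. Tekt1 held the core in both orientations. Traf3ip1 and Dynlrb2 carried it in the GTTGCC orientation, and Drc1, Hydin, Cdhr3 and Ccdc113 in the GGCAAC orientation. The core was also found in windows of members that passed in 0 contrasts, such as Rfx3, Lrrc23, Ift88 and Ift172.

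Dynein arms are the motors of the axoneme: Dnah5, Dnah8 and Dnah11 are heavy chains of outer arms, Dnah2 and Dnah6 of inner arms, and Zmynd10 helps to assemble arms in the cytoplasm. Of these 6 genes 3 fell in WT lungs on Day 7 (median -0.47), 3 on Day 14 (median -0.44), and 3 were higher in FP-KO than in WT lungs on Day 14 (median 0.49). Dnah6 read 1148, 836, 761 and 950.1 in WT Day 0 mice, 574, 663, 585 and 531 on Day 7 and 538, 542, 696, 506 and 620.0 on Day 14. In FP-KO mice it read 932, 979, 819 and 909 on Day 0, 596, 479, 823 and 724 on Day 7 and 873, 896, 989 and 810.1 on Day 14. No WT mouse after Day 0 reached the lowest WT Day 0 mouse, and all FP-KO Day 14 mice lay above all WT Day 14 mice. The WT change was -0.69 ± 0.13 on Day 14, and the difference between genotypes was 0.65 ± 0.13, a fold of 1.56 (adjusted p = 0.0045).

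Dnah8, best known from sperm, had the largest WT fall among the members on Day 7. It read 295, 360.3, 422 and 592 in WT Day 0 mice, 170.3, 142, 121 and 195 on Day 7 and 413, 297, 223, 317 and 222 on Day 14. FP-KO mice stayed in a narrower band, at 343, 299, 432 and 344 on Day 0, 340.1, 238, 280.1 and 294 on Day 7 and 448, 367, 350.4 and 348 on Day 14. All WT Day 7 mice lay below all mice of the other groups. Dnah8 was 0.93 higher in FP-KO than in WT lungs on Day 7, which did not pass (limma adjusted p = 0.108), and its second probe set lay at the floor on 16 arrays. Among the testis list, 9 of 10 genes were too dim to test, with medians of 2.6 to 55.2, and Tcp11, the only one tested, changed by -0.53 ± 0.16 in WT lungs on Day 7.

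Dnah11 fell in both genotypes on Day 7 and then read higher again. In WT mice it read 274, 189, 186 and 234 on Day 0, 152, 136, 160.2 and 103 on Day 7 and 235, 301, 303, 157 and 136 on Day 14. FP-KO mice read 233, 205, 289 and 213, then 177, 92.9, 127 and 167, then 290.0, 350.2, 221 and 225. Day 7 mice lay below Day 0 mice in each genotype, and WT Day 14 mice split into 3 high (No. 1 to 3) and 2 low, along the sets of Day 14 arrays. Its Day 7 changes were -0.67 ± 0.23 in WT and -0.69 ± 0.23 in FP-KO lungs. From Day 7 to Day 14 it rose in FP-KO lungs by 0.88 ± 0.23 (adjusted p = 0.0111), beside 0.64 ± 0.22 in WT lungs (adjusted p = 0.0794).

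On Day 14 Zmynd10 read 152, 131, 203, 142 and 108 in WT and 184, 255, 246 and 243 in FP-KO mice. WT No. 3 lay above the lowest FP-KO mouse, and the difference was 0.63 ± 0.16 (adjusted p = 0.0139). It was 0.36 (adjusted p = 0.264) for Zmynd10 in the set of WT No. 1 to 3 and FP-KO No. 1 and 2, and 0.97 (adjusted p = 0.0948) in the other. Dnah2 read 174, 138, 203, 155 and 158 in WT and 232, 267, 228 and 215 in FP-KO mice, which did not overlap, and differed by 0.46 ± 0.12. Dnah5 passed neither in WT lungs (-0.41 on Day 14) nor between genotypes on Day 14 (0.51, adjusted p = 0.0614). Its FP-KO Day 14 values were 186, 341, 168 and 189.5, against 145, 159.8, 135 and 117 on Day 0, and FP-KO No. 2 stood far above the other 3 on Day 14.

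Ccdc39 and Ccdc40 form the ruler that sets the repeat along the doublet, and Drc1 is a core subunit of the nexin-dynein regulatory complex. Drc1 read 525, 437, 341 and 474 in WT Day 0 mice, 246, 270.2, 285 and 314 on Day 7 and 337, 284, 319.7, 225 and 166 on Day 14. FP-KO mice read 415, 335, 301 and 445 on Day 0, 230.2, 283, 406 and 328 on Day 7 and 419.5, 457, 371 and 374 on Day 14. WT mice of Day 7 and Day 14 lay below those of Day 0, and on Day 14 the genotypes did not overlap. The WT Day 14 change of Drc1 was -0.79 ± 0.18, and it was 0.63 ± 0.18 higher in FP-KO lungs (adjusted p = 0.0293). Ccdc39 read 566, 582, 540.3, 432 and 535 in WT and 705, 861, 791 and 781 in FP-KO Day 14 mice, without overlap, a difference of 0.59 ± 0.19 near the threshold (adjusted p = 0.0493). Ccdc40 followed another course. It read 348 to 385 in WT Day 0, 257 to 423 in WT Day 14, 356 to 376 in FP-KO Day 0, 193 to 353 in FP-KO Day 7 and 323 to 513 in FP-KO Day 14 mice. In FP-KO lungs it fell on Day 7 (-0.46 ± 0.16) and rose from Day 7 to Day 14 (0.63 ± 0.16), while in WT lungs no change passed.

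Radial spokes link the doublets to the central pair, with Rsph1, Rsph4a and Rsph9 in the spoke head and Lrrc23 in a spoke of its own type. Of the 4 genes, Rsph4a alone passed in WT lungs, and Rsph1 and Rsph4a were higher in FP-KO than in WT lungs on Day 14. Rsph4a read 689.7, 549.6, 531 and 504 in WT Day 0 mice, 401, 369, 371 and 398 on Day 7 and 438, 422, 343, 312 and 323 on Day 14. FP-KO mice read 518, 506, 562 and 465 on Day 0, 363, 478, 415 and 456 on Day 7 and 535, 635, 487 and 499.7 on Day 14. Every WT mouse after Day 0 lay below every WT Day 0 mouse and below every FP-KO Day 14 mouse. The WT changes were -0.54 ± 0.12 and -0.66 ± 0.12, and the Day 14 difference between genotypes was 0.56 ± 0.12 (adjusted p = 0.00452). Rsph1 read 588, 612, 523, 609 and 637 in WT and 654, 1219, 812 and 672 in FP-KO Day 14 mice. Its difference of 0.48 ± 0.15 passed (adjusted p = 0.0472) with FP-KO No. 2, the highest of all 25 mice, and without that mouse it was 0.28 (adjusted p = 0.248). In the sets of arrays it was 0.67 (adjusted p = 0.0540) and 0.24 (adjusted p = 0.732). Rsph9 (0.28, adjusted p = 0.065) and Lrrc23 (0.26, adjusted p = 0.0627) did not pass on Day 14 or in any other contrast.

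The central pair apparatus holds Hydin, Spag16 and Spag17 as projection proteins. Hydin read 419, 303, 363 and 378 in WT Day 0 mice, 133, 185, 259.5 and 215 on Day 7 and 202, 225, 273, 197 and 152 on Day 14. FP-KO mice read 315, 329, 407 and 344 on Day 0, 247, 177, 224 and 283 on Day 7 and 330.1, 405, 331 and 290.4 on Day 14. Day 7 mice lay below Day 0 mice in both genotypes, and on Day 14 FP-KO mice overlapped their Day 0 group while all WT mice lay below both. Hydin fell to a fold of 0.534 in WT lungs on Day 7 (log2 -0.91 ± 0.16) and of 0.695 in FP-KO lungs (log2 -0.52 ± 0.16). On Day 14 it was 0.67 ± 0.16 higher in FP-KO lungs, the largest genotype difference among the members that day (adjusted p = 0.00872). Spag16 fell in WT lungs on Day 7 (-0.61 ± 0.19), where WT No. 2 read 88.2 and the other 3 mice 175 to 199. Its Day 14 difference of 0.46 ± 0.18 did not pass (adjusted p = 0.099), although FP-KO mice (253 to 278) and WT mice (166 to 216) did not overlap. Spag17 was too dim to test, at 4.30 to 66.1 in WT Day 0 and 11.3 to 33.1 in WT Day 14 mice.

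Tektins form filaments inside the doublets, and Enkur is a protein of the doublet's inner wall. All 4 genes of this group had WT changes below 0 on both days (medians -0.38 and -0.47), of which 3 passed on each day, and Tekt1, Tekt4 and Enkur were higher in FP-KO lungs on Day 14. Tekt1 read 369.9, 383, 311 and 427 in WT Day 0 mice, 355, 244, 335 and 267 on Day 7 and 311, 269, 271, 229 and 253 on Day 14. FP-KO mice read 337, 331, 367 and 380.1 on Day 0, 294, 292, 337 and 362 on Day 7 and 428, 398, 422 and 392 on Day 14. FP-KO Day 14 mice lay above all WT Day 14 mice and also above their own Day 0 group. The WT Day 14 change was -0.50 ± 0.11, and the genotypes differed by 0.60 ± 0.11 (adjusted p = 0.00245). Tekt4 read 273, 244, 271, 189.9 and 177 in WT and 347, 396, 309 and 303 in FP-KO Day 14 mice, and Enkur read 372, 366, 272, 321 and 339 in WT and 397, 538, 575 and 437 in FP-KO mice. Neither gene overlapped between genotypes on Day 14, with differences of 0.54 ± 0.12 and 0.53 ± 0.14. Tekt2 fell in WT lungs on Day 7 (-0.52 ± 0.19), and on Day 14 its WT values spread from 129 to 313, around those of FP-KO mice (200.0 to 258).

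Intraflagellar transport is shared by motile and primary cilia. The 6 members had medians of -0.25 in WT lungs on both days, 3 falling on each, and of 0.23 between genotypes on Day 14, where Ift81 and Traf3ip1 passed. Ift81, of the tubulin-carrying core of the IFT-B complex, read 1101, 827, 949 and 909.8 in WT Day 0 mice, 889, 819, 723 and 688 on Day 7 and 802, 780.1, 825, 791 and 693 on Day 14. FP-KO mice read 990.1, 969.5, 937 and 927 on Day 0, 841, 787, 871 and 935 on Day 7 and 1019, 1173, 890.2 and 982 on Day 14. All WT Day 14 mice lay below all WT Day 0 and all FP-KO Day 14 mice, and the genotypes differed by 0.40 ± 0.089 (adjusted p = 0.0073). A second bright probe set of Ift81 gave WT Day 14 and Day 7 changes of the same sign. Traf3ip1, another IFT-B subunit, read 845, 879.7, 851, 768 and 669 in WT and 1173, 1179.5, 937 and 804 in FP-KO Day 14 mice, where FP-KO No. 4 lay among the WT mice. It differed by 0.35 ± 0.11 (adjusted p = 0.0352). Ift122, of the IFT-A complex, fell in WT lungs on Day 7 (-0.31 ± 0.11) and on Day 14 (-0.29 ± 0.11), but its second probe set changed by 0.14 on Day 14. Ift57 fell in WT lungs on Day 14 (-0.40 ± 0.11). Ift88 and Ift172 passed in 0 contrasts, with Day 14 differences of 0.26 and 0.041.

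Among the other genes of ciliated cells, Ak7 is an adenylate kinase of cilia, Dynlrb2 a dynein light chain of the roadblock type and Tppp3 a protein that binds tubulin. Ak7 read 1559, 1386, 1258 and 1417 in WT Day 0 mice, 886, 971, 913 and 839 on Day 7 and 815, 781, 725, 792 and 838 on Day 14. FP-KO mice read 1231, 1263, 1278 and 1363 on Day 0, 887, 925, 1126 and 1095 on Day 7 and 1059, 1249, 1331 and 1244 on Day 14. Within each group the mice lay close together, and the 5 WT Day 14 mice lay below all 20 other mice. Ak7 fell in WT lungs to a fold of 0.554 on Day 14 (log2 -0.85 ± 0.089, adjusted p = 3.61e-07) and was 0.64 ± 0.089 higher in FP-KO lungs that day (fold 1.56, adjusted p = 0.000428).

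Dynlrb2 read 5259, 4797, 4167 and 4188 in WT Day 0 mice, 2817, 3002, 3269.7 and 2899 on Day 7 and 2381, 2525, 2307, 2554 and 2898 on Day 14. FP-KO mice read 3968, 3825, 4106 and 4379.5 on Day 0, 3018, 3590.3, 3343 and 3960.4 on Day 7 and 3362, 3596, 4263 and 3849 on Day 14. As for Ak7, WT Day 14 mice were the lowest group, overlapping WT Day 7 mice by No. 5 alone, and they lay below all FP-KO Day 14 mice. The WT change on Day 14 was -0.86 ± 0.089, and the difference between genotypes was 0.60 ± 0.089 (adjusted p = 0.000737).

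Tppp3 read 6426, 7055, 6469 and 6895 in WT Day 0 mice, 2376, 2439, 4019 and 3069.7 on Day 7 and 4196, 3349, 3890.2, 3029.9 and 3865 on Day 14. FP-KO mice read 6068, 6414, 7127 and 7717 on Day 0, 3059, 3469, 4212 and 4661 on Day 7 and 4661, 5923, 5631 and 5240.3 on Day 14. Its group mean was lowest on Day 7 in both genotypes, and the Day 14 mice of either genotype lay below all its Day 0 mice. Its changes on Day 7 were -1.23 ± 0.16 in WT and -0.89 ± 0.16 in FP-KO lungs, and the genotypes differed by 0.56 ± 0.15 on Day 14 (adjusted p = 0.0196).

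Cdhr3, a cadherin of ciliated cells that serves rhinovirus C as a receptor, read 343, 387, 408, 314 and 360.3 in WT and 468, 557, 479 and 503 in FP-KO Day 14 mice. Ccdc113, a coiled-coil protein of cilia, read 213, 257, 208, 190.3 and 128 in WT and 299, 332, 281 and 287 in FP-KO mice that day. Neither overlapped between the genotypes, and the differences were 0.47 ± 0.14 (adjusted p = 0.0303) and 0.59 ± 0.18 (adjusted p = 0.0338). Mlf1, named for its part in a leukaemia fusion, fell in WT lungs on Day 14 (-0.53 ± 0.15). Armc3, a protein of armadillo repeats, and Capsl, of the calcium-binding EF-hand type, passed in 0 contrasts, and Armc3 was the only member below 0 between genotypes on Day 14 (-0.067). Ccdc146 was too dim to test, at 30.7 to 107 in WT Day 0 and 37.5 to 72.4 in WT Day 14 mice.

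**Figure D2:**
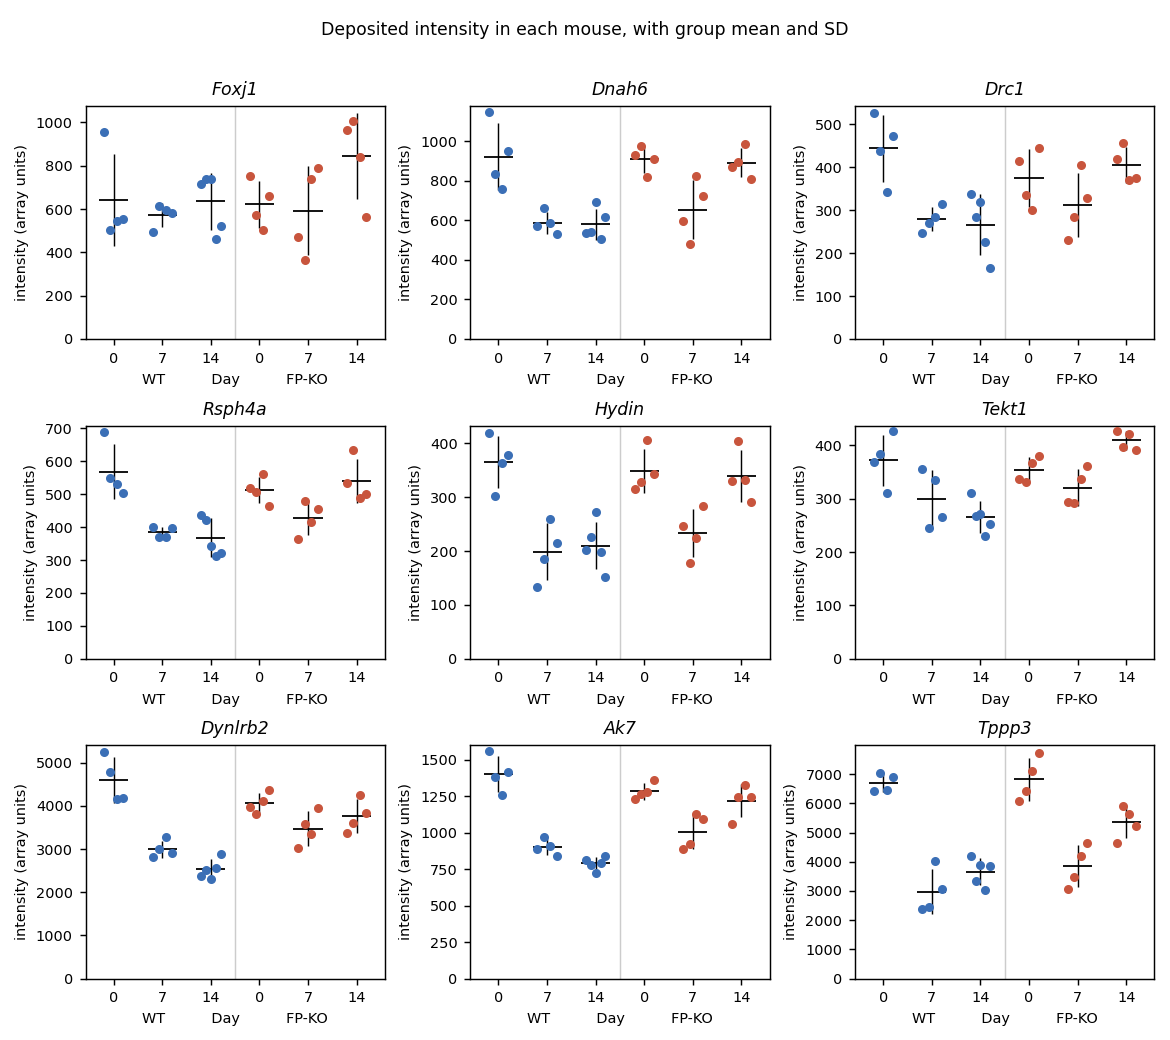
Deposited intensity in each mouse for 9 members, by day (0, 7, 14) and genotype (blue WT, red FP-KO), with the group mean as a bar and the SD as a line. For Ak7 the 5 WT Day 14 mice sit at 725 to 838 and the 4 FP-KO Day 14 mice at 1059 to 1331, while the Foxj1 groups overlap.

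On Day 0, 0 of 35 members passed between the genotypes with limma, where 0.0166% of all genes passed, and 2 had an unadjusted p under 0.05 (3.34% of all genes). The smallest p belonged to Dnah5 (-0.53 ± 0.19, adjusted p = 1), Rsph9 (-0.22) and Mlf1 (-0.29), and the median difference was -0.093. On Day 7, again 0 of 35 passed with limma, among 0.0166% of all genes, and 6 had an unadjusted p under 0.05 (7.27% of all genes). Dnah8 (0.93), Ift172 (0.28 ± 0.094) and Spag16 (0.49 ± 0.19) had the smallest p, and the median difference was 0.16. These counts of 0 do not show that the genotypes were alike on those days, since intervals were wide, as for Foxj1 on Day 0 (-0.48 to 0.45) and on Day 7 (-0.44 to 0.50).

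**Figure D3:**
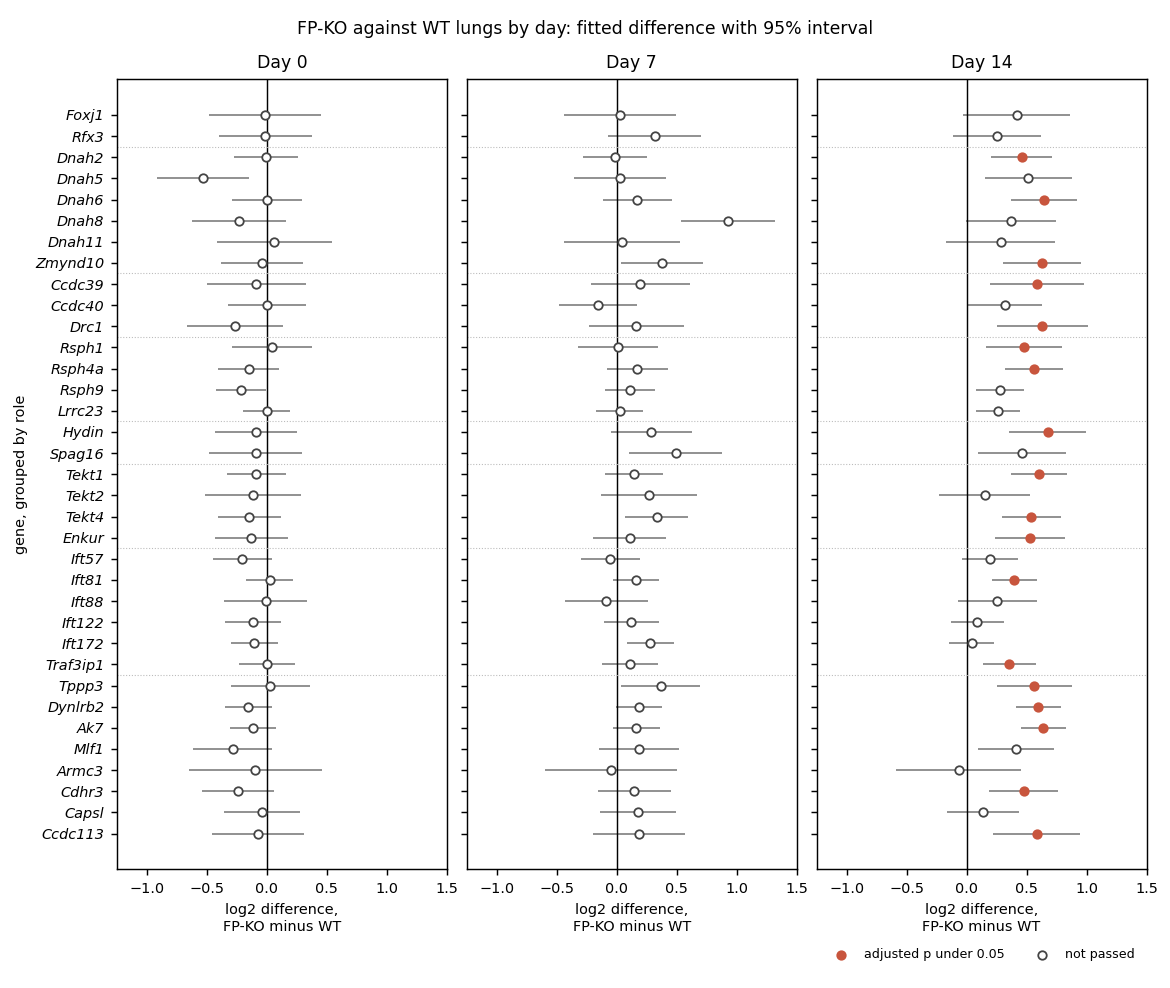
FP-KO minus WT log2 difference (horizontal axis) for each tested member (vertical axis, by role) on Day 0, Day 7 and Day 14, with the 95% interval as a line. Filled points passed at adjusted p under 0.05: there are 0 on Day 0, 0 on Day 7 and 18 on Day 14, all 18 to the right of 0.

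Whether the course since Day 0 differed between genotypes was tested as the interaction of genotype and day. At Day 14, 6 members passed, all with the FP-KO change above the WT change, and the median over the 35 members was 0.54, where 1.28% of all genes passed in that direction and the median over all genes was 0.0085. They were Dnah5 (1.05 ± 0.26, adjusted p = 0.0307), Ak7 (0.76 ± 0.13, adjusted p = 0.00982), Dynlrb2 (0.75 ± 0.13, adjusted p = 0.00982), Rsph4a (0.71 ± 0.17, adjusted p = 0.0264), Tekt1 (0.69 ± 0.16, adjusted p = 0.0256) and Tekt4 (0.69 ± 0.17, adjusted p = 0.0349). The other 29 had values above 0 and did not pass. For Dnah5 the Day 0 difference of -0.53 enters this value, as does FP-KO Day 14 No. 2. Without that mouse 4 members passed, 3 of them among the 6, against 0.431% of all genes in that direction. The count was 2 without WT Day 0 No. 1 (0.514% of all genes). It was 3 without WT Day 0 No. 4 (0.829%), FP-KO Day 0 No. 2 (0.555%) or FP-KO Day 0 No. 4 (0.680%). In the set of WT No. 1 to 3 and FP-KO No. 1 and 2 it was 5 (2.33% of all genes), and in the other 0 by limma (0% of all genes).

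At Day 7 the interaction passed in 0 members by limma, and in 0% of all genes, with 9 members at an unadjusted p under 0.05 (6.34% of all genes) and a median of 0.28. The smallest p belonged to Dnah8 (1.16 ± 0.27, adjusted p = 0.599), Ift172 (0.38) and Tekt4 (0.48). From Day 7 to Day 14 it passed in 0 members, among 0.00829% of all genes, with 9 at an unadjusted p under 0.05 (7.72% of all genes) and a median of 0.25. There Ak7 (0.48 ± 0.13, adjusted p = 0.393), Dynlrb2 (0.41) and Tekt1 (0.46) had the smallest p. A difference between genotypes in what happened between Day 7 and Day 14 was not shown for any member.

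Other genes of the axoneme and of multiciliated cells, 68 tested of 103 listed symbols, were counted in the same comparisons. In WT lungs 22 fell and 2 rose on Day 7 (median -0.23), and 35 fell and 0 rose on Day 14 (median -0.39). Of all genes 18.0% fell on Day 7 and 19.5% on Day 14. In FP-KO lungs 4 fell and 2 rose on Day 7 (median -0.045), and 0 fell and 2 rose on Day 14 (median 0.087). Of all genes 10.7% fell there on Day 7, and 3.26% passed on Day 14. These FP-KO counts are therefore no result about the list. Between genotypes on Day 14, 21 were higher in FP-KO lungs and 0 lower (median 0.39), against 4.89% of all genes higher. In the interaction at Day 14, 11 passed, all above 0, against 1.28% of all genes in that direction. By size the leading differences were those of Wdr63 (1.15 ± 0.16), a protein of inner dynein arms, Ttc29 (0.81 ± 0.13), Fam216b (0.70 ± 0.10) and Fam183b (0.69 ± 0.13).

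Dynein arm assembly factors, 12 tested, moved in both directions in WT lungs on Day 14: 4 fell, among them Lrrc6 (-0.59 ± 0.11) and Dnaaf1 (-0.56 ± 0.16), and 2 rose, Pih1d1 (0.26 ± 0.096), which also serves complexes outside cilia, and Dnaaf5 (0.25 ± 0.077). Lrrc6 alone was higher in FP-KO lungs on Day 14 (0.54 ± 0.11). Of 7 tested regulators of multiciliogenesis, Plk4, the kinase of centriole duplication in dividing cells, rose in WT lungs on Day 14 (0.85 ± 0.16) and was lower in FP-KO lungs (-0.52 ± 0.16), while Myb fell in WT lungs (-0.57 ± 0.15). The 23 other intraflagellar transport genes had medians of -0.093 in WT lungs on Day 14 (4 fell, 1 rose) and 0.083 between genotypes, where Ttc26 and Ift140 were higher. The BBSome, a cargo adaptor of all cilia, had 10 genes tested, of which 3 fell and 1 rose in WT lungs on Day 14 and 0 passed between genotypes (median 0.081). Over all genes, 19.5% fell in WT lungs on Day 14, and 4.89% were higher and 5.64% lower between genotypes that day. In the fit without FP-KO Day 14 No. 2, 19.8% of all genes rose in WT lungs on Day 14. The falls among the 23 other intraflagellar transport genes lay near that background. Counts near these shares are no result about a list. The lists were not tested against each other.

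Markers of other cell types moved in the same comparisons, and their part in the result was not tested. The shares of all genes given for the lists above apply here too. In FP-KO lungs on Day 14 against Day 0, 3.26% of all genes passed. Of 16 club and secretory airway cell genes, 11 fell in WT lungs on Day 14 (median -0.57) and 5 were higher in FP-KO lungs (median 0.31): Gsta3 (1.20 ± 0.17), Cldn10 (0.59 ± 0.16), Aldh1a7 (0.53 ± 0.13) and Scgb3a2 (0.39 ± 0.081) led, with Cyp2f2. Scgb1a1, the leading club cell gene, held the highest intensities of the array (31566 to 51674) and had a difference of 0.042 ± 0.051. The summed intensity of the club list was 124326 to 147591 in WT Day 14 and 159342 to 234246 in FP-KO Day 14 mice, without overlap. Of 16 macrophage genes, 12 rose in WT lungs on Day 14 (median 1.43) and 6 in FP-KO lungs (median 0.55), and 9 were lower and 1 higher in FP-KO lungs that day (median -0.67). Per mouse, the macrophage median from WT Day 0 was 1.30 to 1.57 in WT Day 14 mice and 0.047 to 0.98 in FP-KO Day 14 mice, lowest in FP-KO No. 2, which also had the highest members' median. The summed intensity of the macrophage list overlapped, at 69664 to 81265 in WT Day 14 and 65523 to 82192 in FP-KO Day 14 mice. That sum includes genes with little difference between genotypes on Day 14, such as Lyz2 (0.017 ± 0.057) and Chil3 (0.094 ± 0.15). It therefore does not show that the macrophage signal was alike. Of 12 general epithelial genes 6 rose in WT lungs on Day 14 (median 0.53), while Krt8 and Krt7 were lower in FP-KO than in WT lungs that day (median of the list -0.17).

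Cardiac muscle genes, which come with the walls of large pulmonary veins and any heart tissue in a sample, also moved. All 10 fell in WT lungs on Day 14 (median -1.47), against 19.5% of all genes. Between genotypes 9 were higher in FP-KO lungs that day (median 0.74), against 4.89% of all genes. Their summed intensity was 11007 to 13715 in WT Day 14 and 16202 to 27642 in FP-KO Day 14 mice, against 26687 to 33579 in WT Day 0 and 18274 to 26861 in FP-KO Day 0 mice. The Day 0 mice of the 2 genotypes overlapped in that sum. Alveolar type 1 genes (10 tested, 1 higher, median 0.079) and type 2 genes (10 tested, 0 passing, median 0.098) were counted between genotypes on Day 14 as well. The mesothelial list had 5 genes tested, of which 0 passed on Day 14 between genotypes. Basal and neuroendocrine airway cell lists had 1 tested gene each, with 0 passing there.

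**Figure D4:**
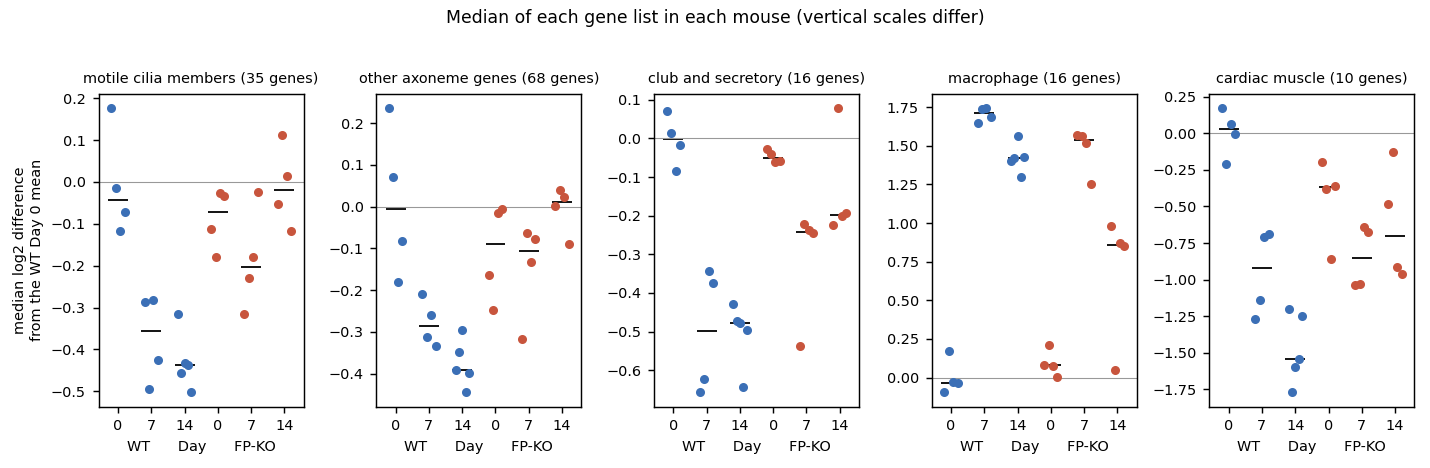
Median log2 difference from the WT Day 0 mean in each mouse (vertical axes differ) for the motile cilia members and 4 other gene lists, by day and genotype (blue WT, red FP-KO), with the group median as a bar. WT Day 14 mice sit at -0.50 to -0.32 for the members and FP-KO Day 14 mice at -0.12 to 0.11, and the club, macrophage and cardiac lists also separate the genotypes on Day 14.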

How the data were processed

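Total RNA of whole lung, extracted with Sepasol per the labels, was hybridised to 1 array for each mouse. The authors deposited intensity values per probe set on a linear scale, each array with the same trimmed mean of 500, as the values show. Software and annotation are not given in the sources used here. Of 45101 probe sets, 34945 carried 1 gene symbol, 932 several, 9147 none, and 64 were controls. Values were floored at 24.3, the 20th percentile, put on log2 and quantile normalized, because array medians spanned 0.43 on that scale. Genes exceeding the array median on 4 or more arrays were fitted with limma 3.58.1 (R 4.3.3) on 6 group means over all 25 arrays, with Benjamini-Hochberg adjustment over 12062 genes. The fit was tested on simulated data. The number of arrays limits the precision.

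The members and lists were chosen with earlier results of these data known. Named members are Foxj1, up to 4 a role group by contrasts passed and size of the WT Day 14 change, and those that passed between genotypes, or the 3 smallest p. Others were named after their values were seen. Of other lists up to 4 are named a comparison, by size. Same-numbered mice of both genotypes deviated together on Day 0 (r = 0.12 to 0.35 over genes) and on Day 7 (0.14 to 0.22). On Day 14 not all of them did (-0.31 to 0.44). Across days, same-numbered mice of WT Day 0 and FP-KO Day 7 gave -0.010 to 0.43. Mice of unlike number were not compared, so these values do not show that equal numbers pair the mice. Alternatives changed scaling, floor, filter, probe sets, variance model, array weights, pairing, samples in the fit and each array. Promoters were searched and figures drawn with Python 3.11.15.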

Additional observations from a re-analysis of the deposited data

Results flagged for a closer look

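Among 210 groups of 4 or 5 mice (35 members in 6 groups), 9 held a mouse far from the others by Dixon's ratio. Chance gives about 1 in 20. The ratio was taken on normalized log2 values, while the values printed are deposited intensities. On these the gap can be smaller, as for Ccdc113 in WT Day 0 No. 4 and Dnah5 in WT Day 7 No. 4. Foxj1 read 956.5 in WT Day 0 No. 1 against 504.2 to 553.0 in the other 3 mice. Dnah2 read 280.8 in FP-KO Day 0 No. 2 (others 214.5 to 223.1). Dnah5 read 340.5 in FP-KO Day 14 No. 2 (others 168.3 to 189.5) and 140.9 in WT Day 7 No. 4 (others 164.1 to 178.2). Dnah8 read 447.7 in FP-KO Day 14 No. 1 (others 348.3 to 366.9), and Zmynd10 read 183.6 in the same mouse (others 242.6 to 254.6). Hydin read 406.7 in FP-KO Day 0 No. 3 (others 315.0 to 343.9). Ift122 read 471.5 in WT Day 7 No. 2 (others 559.2 to 580.9). Ccdc113 read 243.4 in WT Day 0 No. 4 (others 267.0 to 327.3).

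The change from Day 0 to Day 14 differed between the genotypes in 6 members by the interaction term of the limma fit, with FP-KO above WT by 1.05 for Dnah5, 0.757 for Ak7, 0.753 for Dynlrb2, 0.713 for Rsph4a, 0.692 for Tekt1 and 0.686 for Tekt4 on the log2 scale.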

How the results depend on the processing

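Counts are of members passing. Of the members checked for a change of sign, 0 reversed. Those checked had passed in the main fit. Where none had passed between genotypes or in an interaction, they were the 3 of smallest p. Members nearer to no change were not checked. The counts here are given without the share of all genes passing in the same fit. From these counts alone, a loss or gain of members cannot be told from a general loss or gain of calls. For the sets of Day 14 arrays the shares stand in the results above. With arrays shifted to a common median, 2 passed in FP-KO lungs on Day 7 and 2 from Day 7 to Day 14. The same scaling gave 10 between genotypes on Day 14 and 3 in the interaction at Day 14. With only the groups of a contrast, 4 passed in FP-KO lungs on Day 7 and 1 from Day 7 to Day 14. In WT lungs between Day 7 and Day 14, 0 passed with the mean of all probe sets and 8 with array weights, which also gave 1 in FP-KO lungs on Day 14 against Day 0. The mouse number as a replicate block gave 3 in WT lungs between Day 7 and Day 14, and 15 between genotypes on Day 14. A block by number within each day, chosen after seeing the data, gave 4 on Day 14 (median 0.43). Same-numbered mice did not all deviate together on that day. That block gave 0 on Day 0 and on Day 7. With WT No. 1 to 3 and FP-KO No. 1 and 2 as Day 14, 5 passed in WT lungs between Day 7 and Day 14, 2 in FP-KO lungs on Day 14 against Day 0 and 8 between genotypes. With the other 4 mice these were 0, 1 and 0, with 0 in FP-KO lungs from Day 7 to Day 14 and 0 in the interaction. The cause was not tested. Leaving out each array in turn gave 9 to 18 in WT lungs on Day 7, 15 to 21 on Day 14 and 1 to 3 between those days. In FP-KO lungs it gave 1 to 8, 0 to 1 and 1 to 8. Between genotypes it gave 0 to 0 on Day 0 and Day 7 and 8 to 19 on Day 14, and in the interactions 0 to 0 at Day 7, 2 to 8 at Day 14 and 0 to 0 from Day 7 to Day 14. The filter on the array median left Rfx2, Spag17 and Ccdc146 untested in the main fit.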

Other observations

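Some genes of multiciliated cells outside the members had larger fitted differences between genotypes on Day 14 than any member had that day. These genes were not tested against the members. Wdr63 (1.15 ± 0.16), Ttc29 (0.81 ± 0.13), Fam216b (0.70 ± 0.10) and Fam183b (0.69 ± 0.13) had Day 14 differences above that of Hydin, the leading member (0.67 ± 0.16). In WT lungs on Day 14 the fitted falls of Fam183b (-1.05 ± 0.13), Ttc29 (-1.03 ± 0.13), Stk33 (-0.92 ± 0.20) and Cfap161 (-0.90 ± 0.13) were larger than that of Tppp3 (-0.88 ± 0.15), the leading member there. The gaps of Fam216b and Fam183b to Hydin, and of Stk33 and Cfap161 to Tppp3, were smaller than the standard errors. In FP-KO lungs on Day 14 against Day 0, Cdhr4 (0.55 ± 0.15) and Tctex1d4 (0.52 ± 0.12) rose.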
